A study of Caenorhabditis elegans with 4 samples.

Results

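The miRNA genes *mir-50*, *mir-62* and *mir-90* form the miR-190 family of *C. elegans*. Every row named for the hairpins cel-mir-50, cel-mir-62 and cel-mir-90 or for their mature strands was taken from the deposited counts, which gave 3 of 250 hairpins and 5 of 434 mature strands, namely miR-50-5p, miR-50-3p, miR-62, miR-90-5p and miR-90-3p. Small RNA of whole worms was sequenced from 4 strains, as 1 library per strain collected on day 0 of adult life, and all strains fed on OP50-1 bacteria on plates with streptomycin. WT was N2 Bristol at 25 °C. The long-lived *glp-1(e2144)* III mutant, strain CF1903, was also kept at 25 °C, where worms with this mutation develop without a germline. ALG-1/OE, strain CT20, carries the array zaIs5, in which *alg-1p::GFP::alg-1* is joined by the marker *rol-6(su1006)*, and was kept at 20 °C. Its control, ctrl, is strain PE255, also at 20 °C, whose array feIs5 on X holds *sur-5p::luciferase::GFP* and the same marker. The first is driven by the promoter of *alg-1* itself and the second by that of *sur-5*. Each library came from 1 pool of worms, so the spread between worms or preparations is unknown, and a change of strain cannot be told apart from a change of library.

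An animal miRNA usually begins as a long transcript from which the Drosha enzyme cuts out a hairpin. Dicer then cuts the hairpin into a short duplex, 1 strand of which, the guide, is kept by an Argonaute such as ALG-1, while the other, the passenger, is mostly lost. A mirtron takes another route, since its hairpin is a whole short intron that is freed by splicing and not by Drosha. The guide strands miR-50-5p, miR-62 and miR-90-3p share their seed, the stretch near the 5′ end by which a miRNA recognizes its targets, with vertebrate miR-190, and *mir-62* is a known mirtron while *mir-50* and *mir-90* are Drosha-dependent. In humans a gene of this family lies in an intron of a talin gene, *TLN2*.

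All 3 hairpins lay in introns of protein-coding genes on the strand of the host, which was true for 80 of all 250 hairpins (32%) when introns of every annotated gene were taken. The hairpin of *mir-50* lies on chromosome I, from 1738635 to 1738733 on the plus strand, in an intron of *tln-1*, the worm gene for talin, a protein that links integrins to actin. That intron has 299 bases, with 107 bases before the hairpin and 93 after it. The hairpin of *mir-90* lies on chromosome III, between 8873987 and 8874084 of the minus strand, inside an intron of K01F9.2 with 4047 bases, with 1278 bases before it and 2671 after it. The hairpin of *mir-62* lies on chromosome X, from 12692608 to 12692665 on the plus strand, and is the whole of an intron of *ugt-50*, which encodes a member of the UDP-glucuronosyltransferase family. The 58 bases of this hairpin begin and end exactly at the edges of the intron, and the mature strand miR-62 covers bases 37 to 58, so that it ends on the last base before the next exon. The guide strand is the 5′ arm of *mir-50*, from base 16 to base 39 of the hairpin, and the 3′ arm of *mir-90*, from base 62 to base 84. The coordinates are those of the files and equal the WBcel235 annotation at all 3 hairpins, whereas the study names the ce10 build.

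**Figure D1:**
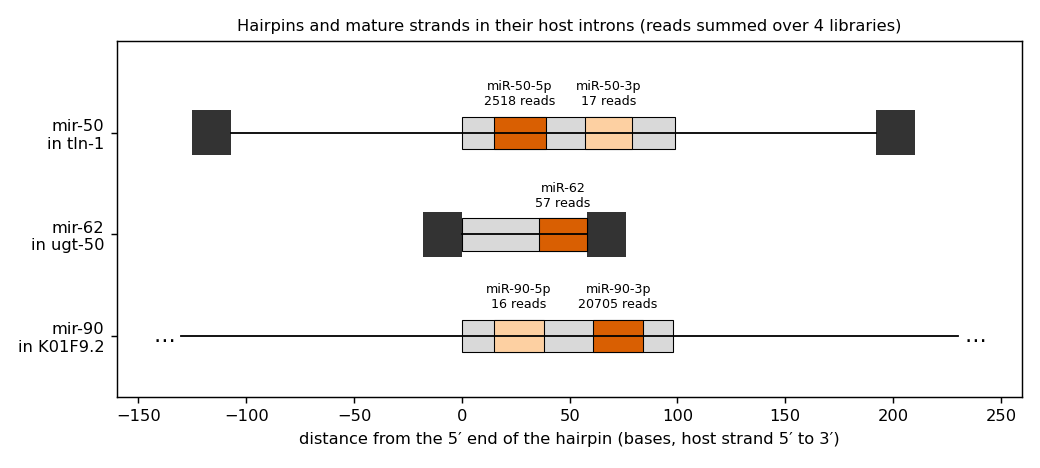
Position of each hairpin (grey), its guide strand (orange) and its passenger strand (pale orange) within the host intron (line), in bases from the 5′ end of the hairpin along the host strand. Dark blocks mark where exons begin and are drawn at a fixed width, dots mark introns that go on, and the read numbers are sums over the 4 libraries, 2518 for miR-50-5p, 57 for miR-62 and 20705 for miR-90-3p.

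The ncRNA genes Y71G12B.36 and K01F9.7 overlap *mir-50* and *mir-90* on the opposite strand, and no such gene overlaps *mir-62*. In the whole data, mature miRNAs that overlap on opposite strands formed 7 pairs, of which 5 had equal counts in all 4 libraries and the other 2 had 0 reads. Reads from the *mir-50* and *mir-90* hairpins can therefore not be told apart from reads of their antisense partners.

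The totals of mature miRNA reads were 175048 in ctrl, 238172 in ALG-1/OE, 211140 in WT and 536907 in *glp-1(e2144)*, and levels are given as RPM, the reads of a strand for each 1000000 of these. An RPM value is thus a share of the miRNA reads, and a change of all miRNAs together cannot be seen in it. All intervals are 95% Clopper-Pearson intervals unless another kind is named, and they cover counting error only, since reads without molecular identifiers are not independent molecules. miR-35 to miR-42, a family made in the germline and embryos, held between 6.51% and 11.3% of the miRNA reads in the other libraries and 0.0756% in *glp-1(e2144)*. Of the markers of other tissues, miR-1-3p of muscle had at most 5 reads in any library and miR-124-3p of sensory neurons had 0 reads in all 4, but other strands of such cells were read, with between 7 and 27 reads of miR-1-5p and between 7 and 23 of lsy-6-3p, a miRNA of sensory neurons, in each library. In each library miR-1-3p had fewer reads than miR-1-5p of the same hairpin. The reason was not tested, and low counts of these markers are therefore no measure of the tissues. In whole worms, fewer cells of a type and less RNA per cell cannot be told apart.

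The 3 guide strands together held a small share of the miRNA reads, with 2842 reads or 1.62% (1.56% to 1.68%) in ctrl, 5206 reads or 2.19% (2.13% to 2.25%) in ALG-1/OE, 4118 reads or 1.95% (1.89% to 2.01%) in WT and 11114 reads or 2.07% (2.03% to 2.11%) in *glp-1(e2144)*. The lowest and the highest share both came from worms kept at 20 °C. Almost all of these reads belonged to miR-90-3p, which made up between 87.9% and 90.0% of the reads of the 3 guide strands. miR-50-5p made up between 9.89% and 11.8%, and miR-62 between 0.0960% and 0.387%.

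miR-90-3p had 2512 reads in ctrl, 4686 in ALG-1/OE, 3619 in WT and 9888 in *glp-1(e2144)*. Its level was 14350 RPM (13798 to 14918) in ctrl, 19675 RPM (19121 to 20241) in ALG-1/OE, 17140 RPM (16591 to 17703) in WT and 18417 RPM (18059 to 18780) in *glp-1(e2144)*. It was among the abundant miRNAs of the worm, at rank 15 by reads in *glp-1(e2144)*, where 230 miRNAs had reads, at rank 17 in ALG-1/OE and at rank 18 in WT and ctrl. Its level was lowest in ctrl and highest in ALG-1/OE. With this many reads the intervals are narrow. As they cover counting error only, gaps between them do not measure a difference between strains.

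miR-50-5p had 319 reads in ctrl, 515 in ALG-1/OE, 486 in WT and 1198 in *glp-1(e2144)*. Its level was 1822 RPM (1628 to 2034) in ctrl, 2162 RPM (1980 to 2357) in ALG-1/OE, 2302 RPM (2102 to 2516) in WT and 2231 RPM (2107 to 2361) in *glp-1(e2144)*, at ranks from 36 to 43. The intervals of WT, *glp-1(e2144)* and ALG-1/OE overlapped, and the level was lowest in ctrl. The interval of ctrl overlapped that of ALG-1/OE but not those of WT and *glp-1(e2144)*.

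miR-62, the mirtron, had 11 reads in ctrl, 5 in ALG-1/OE, 13 in WT and 28 in *glp-1(e2144)*. Its level was 62.8 RPM (31.4 to 112) in ctrl, 21.0 RPM (6.82 to 49.0) in ALG-1/OE, 61.6 RPM (32.8 to 105) in WT and 52.2 RPM (34.7 to 75.4) in *glp-1(e2144)*, at ranks from 120 to 172. WT, *glp-1(e2144)* and ctrl lay close together and ALG-1/OE lay lowest, but the interval of ALG-1/OE overlapped those of the other libraries.

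**Figure D2:**
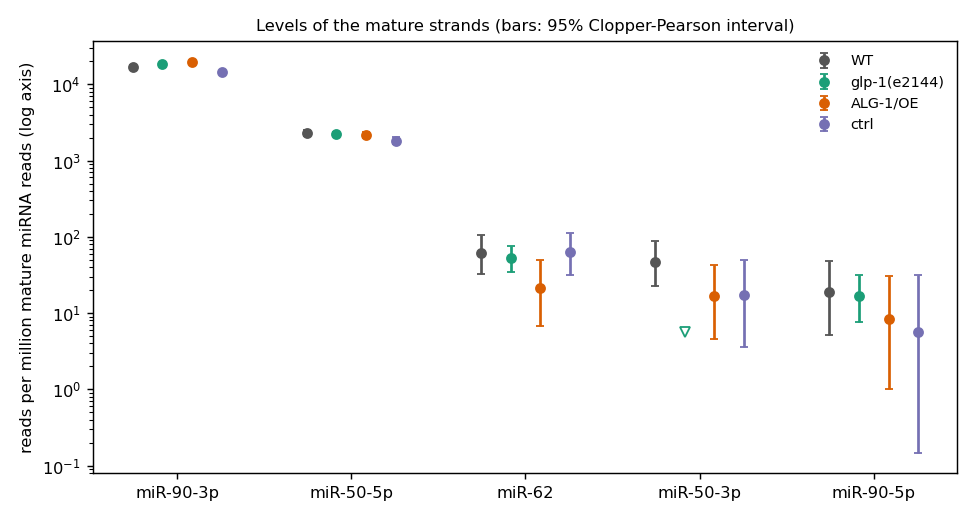
Level of each mature strand in each library in RPM, on a log axis, with bars for the 95% Clopper-Pearson interval. The open triangle marks miR-50-3p in *glp-1(e2144)*, which had 0 reads and is drawn at the limit of 3 reads (5.59 RPM). miR-90-3p, from 14350 to 19675 RPM, and miR-50-5p, from 1822 to 2302 RPM, lie far above the other strands in every library.

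The order of the levels was therefore miR-90-3p, miR-50-5p and miR-62 in every library. miR-90-3p had between 7.45 and 9.10 reads for each read of miR-50-5p, and its lowest interval bound was 6.77 in WT. For each 1000 reads of miR-50-5p, miR-62 had 34.5 reads (17.04 to 62.5) in ctrl, 9.71 (3.14 to 22.8) in ALG-1/OE, 26.7 (14.1 to 46.2) in WT and 23.4 (15.5 to 34.0) in *glp-1(e2144)*. Below them, miR-62 could not be ranked against the passenger strand miR-50-3p in WT, ALG-1/OE and ctrl, where the reads of miR-62 for each read of miR-50-3p were 1.30 (0.527 to 3.31), 1.25 (0.269 to 6.30) and 3.67 (0.969 to 20.5). The mirtron guide was thus not separable from the discarded strand of *mir-50* in these libraries, whereas *glp-1(e2144)* had 28 reads of miR-62 and 0 of miR-50-3p. In WT, ALG-1/OE and ctrl the intervals of miR-90-5p to miR-50-3p also held 1.

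The passenger strands were rare at both Drosha-dependent hairpins. miR-50-3p had 3 reads in ctrl, 4 in ALG-1/OE, 10 in WT and 0 in *glp-1(e2144)*. Of the reads on the strands of *mir-50* it took 2.02% (0.971% to 3.68%) in WT, 0.771% (0.210% to 1.96%) in ALG-1/OE and 0.932% (0.193% to 2.70%) in ctrl. The 0 of 1198 reads in *glp-1(e2144)* allow a share of up to 0.2504% by the limit of 3 reads and of up to 0.307% by the Clopper-Pearson interval, both below the interval of WT. Both bounds lay above the lower ends of the intervals of ALG-1/OE and ctrl, so *glp-1(e2144)* was set apart from WT only. That contrast rests on the 10 reads of 1 WT library. WT was itself not separable from ctrl, with an odds ratio of 0.457 (0.0803 to 1.79) for ctrl against WT. The odds of a *mir-50* read falling on the 3p strand were lower in *glp-1(e2144)* than in WT, with an exact conditional odds ratio of 0 and an upper bound of 0.182. With the 0 reads of *glp-1(e2144)* set to the limit of 3 reads in that library and the 10 reads of WT taken as exact, the level of miR-50-3p was at least 8.48-fold lower than in WT. With the counting error of both libraries, the interval of the log2 ratio ended at -2.51. Of the 147 mature miRNAs with at least 10 reads in WT, 6 had 0 reads in *glp-1(e2144)*, although that library was the deepest, and these were miR-250-5p, miR-35-5p, miR-36-5p, miR-42-3p, miR-50-3p and miR-51-3p. This list was drawn up after the values were seen, and 3 of the 6 belong to the miR-35 to miR-42 family. A lower level in *glp-1(e2144)* was common, with 27.1% of the 199 miRNAs read in both libraries below -1 on the log2 scale. A drop of the rarer strand alone was not particular to *mir-50*. miR-52-3p had a log2 ratio of -3.78 beside -0.33 for miR-52-5p. Other hairpins went the other way, such as miR-58a-5p with 1.76 beside 0.095 for miR-58a-3p. Such pairs were not counted. The low shares of miR-50-3p in ALG-1/OE and ctrl were not distinguishable from each other, with an odds ratio of 0.826 (0.139 to 5.68).

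miR-90-5p had 1 read in ctrl, 2 in ALG-1/OE, 4 in WT and 9 in *glp-1(e2144)*. Of the reads on the strands of *mir-90* it took 0.0398% (0.00101% to 0.222%) in ctrl, 0.0427% (0.00517% to 0.154%) in ALG-1/OE, 0.110% (0.0301% to 0.282%) in WT and 0.0909% (0.0416% to 0.173%) in *glp-1(e2144)*, and these intervals overlapped. Summed over the libraries, the passenger took 0.671% (0.391% to 1.07%) at *mir-50* and 0.0772% (0.0441% to 0.125%) at *mir-90*, so the intervals of the summed reads lay apart. Within single libraries they lay apart in WT and ALG-1/OE only. They overlapped in ctrl, and in *glp-1(e2144)* they overlapped with *mir-50* the lower, at 0 reads. At *mir-62* the deposited counts name the guide as the only mature strand, and all 57 reads of the hairpin row over the 4 libraries were also counted on it. The 0 reads elsewhere on this hairpin allow a share of up to 5.26% by the limit of 3 reads and of up to 6.27% by the Clopper-Pearson interval, above the passenger shares of the other hairpins, so a passenger as rare as theirs was not detectable at this depth.

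The comparison of *glp-1(e2144)* with WT addressed how miRNAs differ in worms without a germline. The guide strands of the family had nearly the same share of the miRNA reads in both libraries. The log2 ratio of the levels was 0.10 (0.049 to 0.16) for miR-90-3p, -0.045 (-0.20 to 0.11) for miR-50-5p and -0.24 (-1.24 to 0.83) for miR-62, beside a median of -0.013 over the 199 miRNAs that both libraries held. Of the passengers, miR-90-5p had a log2 ratio of -0.18 (-2.02 to 1.98), and miR-50-3p had reads in WT only. The study called a miRNA changed when this log2 value was above 1 or below -1. Of the 4 strands of the family found in both, 0 passed this cut-off, which 36.7% of all miRNAs measured passed, 9.55% above and 27.1% below. This count leaves out miR-50-3p, whose 0 reads in *glp-1(e2144)* removed it from the miRNAs compared and whose interval lay below the lower cut-off. The sign of the miR-90-3p value turned, to -0.069, when the miR-35 to miR-42 family was left out of the total.

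The comparison of ALG-1/OE with ctrl addressed how miRNAs differ when the Argonaute is overexpressed. The Drosha-dependent guides had a higher share in ALG-1/OE, with log2 ratios of 0.46 (0.39 to 0.53) for miR-90-3p and 0.25 (0.042 to 0.45) for miR-50-5p, which correspond to 1.37-fold and 1.19-fold. Neither passed the cut-off, and the median over the 204 miRNAs measured was 0.14. For miR-50-5p the interval held 0 when the libraries were scaled by TMM factors, at 0.074 (-0.13 to 0.28), or by the median of ratios, at 0.11 (-0.098 to 0.31), which both rest on the middle of the miRNA ratios and not on the total. The mirtron lay on the other side, with 11 reads in ctrl but 5 in ALG-1/OE and a log2 ratio of -1.58 (-3.46 to 0.061), the fifth lowest of the 204 values. Its interval held 0 with this scaling and ended just below 0 with TMM factors, at -0.11, and with the median of ratios, at -0.080, so that whether a difference of miR-62 was detectable at this depth turned on the scaling. The 4 values below that of miR-62 also came from strands with few reads, at most 7 in ALG-1/OE and 17 in ctrl. miR-62 was the 1 strand of the 5 below the lower cut-off, which 6.86% of all miRNAs passed, and 0 of the 5 lay above the upper one, which 11.3% passed. The passengers, with between 1 and 4 reads, had log2 ratios of -0.029 (-2.59 to 2.74) for miR-50-3p and 0.56 (-3.71 to 6.44) for miR-90-5p.

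The control libraries, ctrl against WT, differ in transgene and in temperature, which cannot be told apart here, and show how far strains that are both used as controls lie apart. This comparison shares its libraries with the others. The log2 ratio was -0.26 (-0.33 to -0.18) for miR-90-3p, -0.34 (-0.55 to -0.13) for miR-50-5p and 0.029 (-1.27 to 1.30) for miR-62. For miR-50-5p the difference between the controls was thus no smaller in size than that between ALG-1/OE and ctrl, whereas for miR-90-3p and miR-62 it was smaller. The passengers miR-50-3p, with 3 reads against 10, and miR-90-5p, with 1 read against 4, lay below the lower cut-off at -1.47 (-3.97 to 0.49) and -1.73 (-7.35 to 1.61). These are 2 of the 5 strands, where 11.1% of all 198 miRNAs lay below it and 21.7% passed either cut-off, and both intervals held 0.

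**Figure D3:**
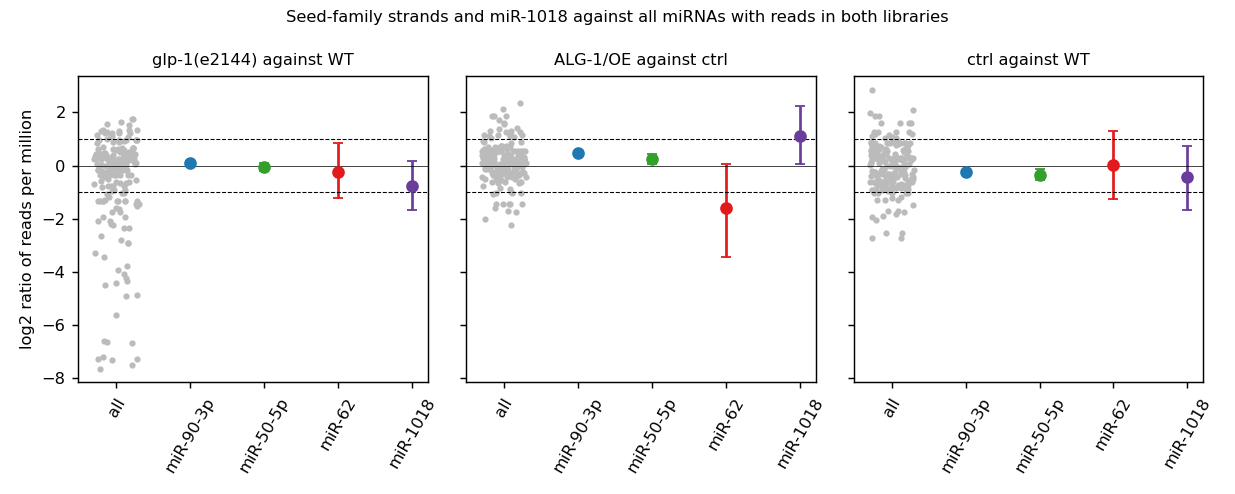
Log2 ratio of the levels in each comparison for every miRNA with reads in both libraries (grey points) and for miR-90-3p, miR-50-5p, miR-62 and the mirtron miR-1018, with bars for the 95% Clopper-Pearson interval and dashed lines at 1 and -1. miR-90-3p and miR-50-5p lie within the dashed lines in each comparison, and in ALG-1/OE against ctrl miR-62 lies at -1.58 and miR-1018 at 1.10.

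A ratio of 2 miRNAs within a library does not depend on the scaling, and *mir-62* was therefore set against *mir-50* and *mir-90* in this way. For each 1000 reads of miR-90-3p, miR-62 had 4.38 reads (2.18 to 7.85) in ctrl, 1.07 (0.346 to 2.49) in ALG-1/OE, 3.59 (1.91 to 6.15) in WT and 2.83 (1.88 to 4.10) in *glp-1(e2144)*. The ratio was lowest in ALG-1/OE, but its interval overlapped those of the other libraries, which also overlapped each other. Between ALG-1/OE and ctrl, the exact conditional odds ratio was 0.244 (95% interval 0.0663 to 0.762) against miR-90-3p and 0.282 (0.0761 to 0.890) against miR-50-5p. Both intervals lay below 1, but 6 such ratios were compared (each guide in each comparison), and with intervals widened for 6 comparisons they reached from 0.0412 to 1.07 and from 0.0472 to 1.25. With so few reads the difference between the mirtron and its Drosha-dependent relatives was not established, and such a ratio compares these libraries and not the strains.

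In *glp-1(e2144)* against WT the odds ratio of miR-62 was 0.788 (0.395 to 1.66) against miR-90-3p and 0.874 (0.434 to 1.85) against miR-50-5p, and in ctrl against WT it was 1.22 (0.494 to 2.95) and 1.29 (0.516 to 3.16), with all 4 intervals around 1. The ratio of the Drosha-dependent guides to each other rests on many more reads. For each 1000 reads of miR-90-3p, miR-50-5p had 127 reads (113 to 143) in ctrl, 110 (100 to 120) in ALG-1/OE, 134 (122 to 148) in WT and 121 (114 to 129) in *glp-1(e2144)*. The odds ratios of miR-50-5p to miR-90-3p were 0.902 (0.806 to 1.01) in *glp-1(e2144)* against WT, 0.865 (0.745 to 1.01) in ALG-1/OE against ctrl and 0.946 (0.811 to 1.10) in ctrl against WT, so that a difference of more than about 1.34-fold between these 2 miRNAs lay outside the interval in each comparison.

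**Figure D4:**
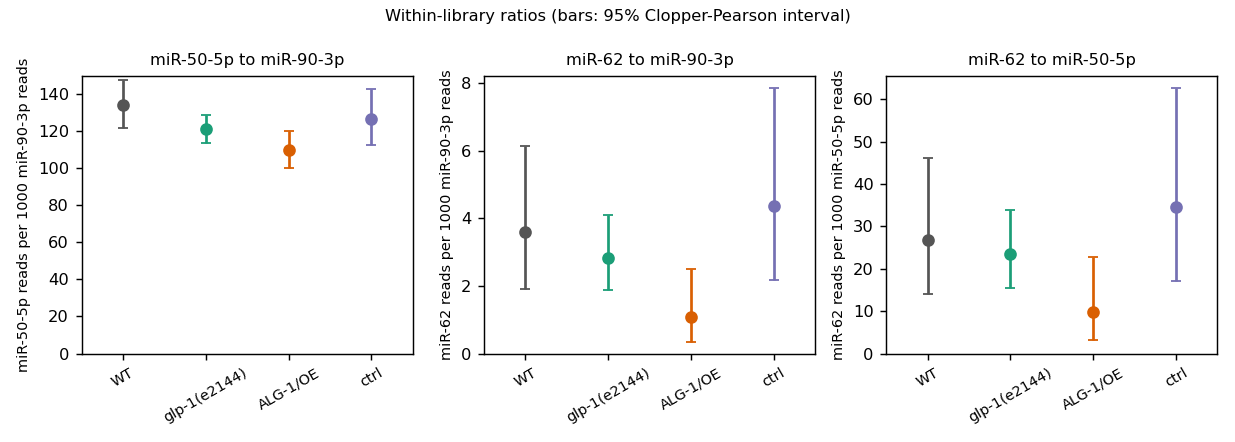
Reads of miR-50-5p per 1000 reads of miR-90-3p, and of miR-62 per 1000 reads of miR-90-3p and of miR-50-5p, in each library, with bars for the 95% Clopper-Pearson interval. miR-50-5p stays between 110 and 134 reads, while miR-62 has its lowest value, 1.07 reads per 1000 of miR-90-3p, in ALG-1/OE.

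The other mirtrons considered here, *mir-1018*, *mir-1019* and *mir-1020*, had few reads or 0 reads. Further hairpins that are a whole intron are described at the end. miR-1018 had 11 reads in ctrl, 32 in ALG-1/OE, 18 in WT and 27 in *glp-1(e2144)*. Its log2 ratio was 1.10 (0.071 to 2.23) in ALG-1/OE against ctrl, above the upper cut-off and opposite in sign to miR-62. With TMM factors and the median of ratios it was 0.92 and 0.96, both short of the cut-off. It was -0.76 (-1.68 to 0.19) in *glp-1(e2144)* against WT. The odds ratio of miR-62 to miR-1018 between ALG-1/OE and ctrl was 0.162 (0.0355 to 0.640), an interval that was not widened for the number of ratios compared. miR-1020-3p had 1 read in ctrl, 3 in ALG-1/OE, 0 in WT and 8 in *glp-1(e2144)*, and miR-1020-5p and both strands of *mir-1019* had 0 reads in all libraries.

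The miRNAs whose levels over the 4 libraries followed the family most closely were sought among the 116 miRNAs with at least 10 reads in every library, by the Euclidean distance between log2 RPM values centred on their mean. This is a description over 4 single libraries, whose totals enter every RPM value. The nearest to miR-90-3p were miR-229-5p at a distance of 0.077, miR-65-5p at 0.21 and miR-50-5p at 0.21. The nearest to miR-50-5p were miR-72-5p at 0.16, miR-65-5p at 0.17 and miR-90-3p at 0.21. The Drosha-dependent guides were thus each among the 3 nearest of the other, and miR-229-5p ordered the libraries as miR-90-3p did, with 8980 RPM in ctrl, 13238 RPM in ALG-1/OE, 11059 RPM in WT and 11723 RPM in *glp-1(e2144)*. miR-62 had too few reads in ALG-1/OE to be placed in this way.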

How the data were processed

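The authors prepared libraries from 6 µg of total RNA, removed adapters and reads under 18 bases with the Fastx-ToolKit, used Bowtie2 to align the rest to ce10, and deposited a raw count for each hairpin and mature strand. The counter and its treatment of reads with several matches are not given in the sources used here. The description of the series calls CT20 the control, whereas CT20 is ALG-1/OE in the sample labels, which were followed. For names with several rows the row with most reads was taken. The study scaled to all reads of a sample. These totals were not used here, and counts were divided by the total of mature miRNA reads. Fold changes need reads in both libraries and have no pseudocount. Their intervals are Clopper-Pearson intervals of the split of the reads, and ratios of ratios have exact conditional intervals. With 1 library per strain no test of a strain was possible, and no p-value is given. The interval code was tested on simulated data.

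The genes described are the members of the family, the mirtrons *mir-1018*, *mir-1019* and *mir-1020*, and the 3 nearest neighbours of each guide with at least 10 reads in every library. The members and lists were chosen with earlier results of these data known. Introns came from the Ensembl annotation of WBcel235, where 243 of 250 hairpins lie at the deposited coordinates. Alternatives replaced the scaling (total without miR-35 to miR-42, TMM factors of edgeR 4.0.16, median of ratios of DESeq2 1.42.0, total of hairpin reads), added 0.5 reads, used every row, used hairpin rows, asked for 10 reads, or lowered the cut-off to 1.5-fold. Scripts ran in R 4.3.3 and in Python 3.11.15 with pandas 2.3.3, scipy 1.17.1, matplotlib 3.10.9 and numpy 2.4.6.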

Additional observations from a re-analysis of the deposited data

How the results depend on the processing

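Depth limits miR-62 and both passenger strands most, since each had between 0 and 28 reads in a library. The scaling moved the median of all miRNAs by over 0.1 on the log2 scale when miR-35 to miR-42 were left out of the total in *glp-1(e2144)* against WT (-0.17), and with TMM factors (-0.17) and the median of ratios (-0.14) in ALG-1/OE against ctrl. In the first case miR-50-5p moved to -0.22 (-0.37 to -0.062) and miR-90-3p to -0.069 (-0.12 to -0.014). In the second, miR-90-3p moved to 0.28 (0.21 to 0.35) and 0.31 (0.24 to 0.39), with intervals above 0. There miR-50-5p moved to 0.074 and 0.11, and the intervals of miR-50-5p held 0. Without the family, miR-90-3p moved to -0.33 in ctrl against WT. The log2 ratio of miR-62 in ALG-1/OE against ctrl ranged from -1.75 to -1.55 over the scalings, and its interval lay below 0 with TMM factors and the median of ratios. Of 98 alternative values of the strands, 93 stayed within their interval, as did all 8 strand shares, and in all 12 alternatives the ratios of miR-62 to the other guides kept their side of 1. Most of these could hardly have moved. The hairpin rows hold the same reads as their strands but for 1 read at *mir-90* in WT. The intervals of miR-62 and the passengers are also far wider than the shifts of the scaling. miR-1018, at 1.10 in ALG-1/OE against ctrl, fell short of the cut-off with TMM factors (0.92) and the median of ratios (0.96).

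Counts of all miRNAs past the cut-off moved more. Above it in *glp-1(e2144)* against WT were 19 miRNAs, 9 when a minimum of 10 reads was asked for in both libraries and 42 at 1.5-fold. Below it were 54, 35 with at least 10 reads in the higher library and 21 in both. In ALG-1/OE against ctrl 23 lay above, 14 with TMM factors, with the median of ratios and with 10 reads in the higher library, 5 with 10 reads in both and 42 at 1.5-fold, and 14 lay below, 4 and 1 with these minimums and 24 at 1.5-fold. In ctrl against WT 21 lay above, 12 and 7 with these minimums and 45 at 1.5-fold, and 22 lay below, 6 with 10 reads in both and 51 at 1.5-fold. A minimum removes miRNAs and a lower cut-off admits them by construction, and the cause of the other moves was not tested. No paired analysis was possible because each strain has 1 library.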

Other observations

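A search of the annotation for hairpins that are exactly a whole intron of any gene, made after the data were seen, found 21 of the 250, *mir-62* among them. Of the 20 others, 7 had reads in some library and 13 had 0 reads in all 4. Most of the 20 lie in a single ncRNA gene on chromosome X, Y59E1B.1, which also hosts *mir-1018*. The hairpins with most reads over the 4 libraries were *mir-1018* with 88, *mir-4816*, in an intron of T09B4.2, with 76, and *mir-62* with 57. *mir-4816*, named after its values were seen, had 3 reads in ctrl, 20 in ALG-1/OE, 17 in WT and 36 in *glp-1(e2144)*, and a log2 ratio of 2.29 (0.54 to 4.69) in ALG-1/OE against ctrl. Between the controls it also differed, with -2.23 (-4.65 to -0.44) in ctrl against WT.

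Summed, the 20 other hairpins had 17 reads in ctrl, 57 in ALG-1/OE, 37 in WT and 72 in *glp-1(e2144)*. Their level was 97.1 RPM (56.6 to 155) in ctrl, 239 RPM (181 to 310) in ALG-1/OE, 175 RPM (123 to 242) in WT and 134 RPM (105 to 169) in *glp-1(e2144)*. Their log2 ratio was 1.30 (0.50 to 2.18) in ALG-1/OE against ctrl, and the odds ratio of miR-62 to them was 0.139 (0.0331 to 0.507). In *glp-1(e2144)* against WT that odds ratio was 1.11 (0.485 to 2.61). In ctrl against WT it was 1.83 (0.606 to 5.51), and the log2 ratio of the 20 hairpins was -0.85 (-1.77 to 0.013), so ctrl had the lowest level of this sum among the 4 libraries. This ratio was chosen with the values of miR-62 known and compares single libraries. Most reads of the sum belonged to *mir-1018* and *mir-4816*, with 88 and 76 over the 4 libraries. The sum is therefore not separate from the values given above for these hairpins.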
